A study of Mus musculus with 30 samples.

Results

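The 10 genes Tgfb1, Tgfbr1, Tgfbr2, Tgfbr3, Smad2, Smad3, Smad7, Ski, Skil and Pmepa1 encode the ligand TGFB1, its receptors, the SMADs that carry its signal and the feedback regulators that limit it. They were chosen by name from the known pathway, with earlier results of these data known. All 10 were among the 55573 genes of the deposited count table and among the 11718 genes with enough counts to be tested. RNA was sequenced from 30 cultures of mouse CD8+ T cells, in 6 groups of 5 libraries, to ask how cells lacking the convertase Furin differ from wild type with and without added cytokine. The mice were C57BL/6 animals 8 weeks old, and naive CD8+ cells were isolated with magnetic beads from their lymph nodes and spleens. Every culture was stimulated for 3 days in the serum-free medium X-VIVO 20 on plates coated with antibodies to CD3 and CD28, each at 5 µg/ml. The 6 groups were wild type (WT) and Furin knockout (KO) cells, each cultured without cytokine, with 0.5 ng/ml TGFB1 or with 10 ng/ml IL12. The labels do not state in which cells Furin was deleted, by what means, or which part of the gene was removed. Libraries are named by genotype and the number in their title: 62, 67, 71, 72 and 75 in WT and 63, 68, 70, 73 and 74 in KO. The numbers 62 and 63 are the males, and the other 4 numbers of each genotype are females.

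TGFB1 is made as a precursor that proprotein convertases such as furin cleave, and it is secreted in a latent form. Active ligand binds TGFBR2, which recruits and activates TGFBR1, and TGFBR1 phosphorylates SMAD2 and SMAD3, which enter the nucleus with SMAD4. Signalling induces its own inhibitors, and in CD8+ T cells it restrains effector genes and induces the integrin chain gene Itgae.

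Library totals ran from 7306151 to 15502443 counts. Levels are given as CPM, the counts of a gene divided by the TMM-scaled library total (counts-per-million). Differences are log2 fold changes from edgeR's quasi-likelihood test over all 30 libraries, with the standard error (SE) and a p-value that was Benjamini-Hochberg adjusted over the 11718 genes. Below 0.05 for that p, a gene counts as called. Libraries that share a number were counted as separate units, and the labels do not say that the 5 libraries of a group come from separate animals. The p-values then measure the spread between these libraries, part of which may be technical. Furin itself was at 28.83 to 38.48 CPM in WT and 31.53 to 33.86 CPM in KO without cytokine, and KO and WT were not called apart in any condition. Because counts per gene include any part left after the deletion, these levels do not check the KO labels. The 6 markers of CD8+ T cells (Cd3d, Cd3e, Cd3g, Cd8a, Cd8b1 and Trac) summed to 1690 to 4290 CPM in all libraries. Their sums were 2670 to 4290 CPM in WT with TGFB1 and 2170 to 2940 CPM in KO with TGFB1. Cd4 was at most 2.37 CPM, and the 5 B-cell markers summed to 5.99 to 18.6 CPM, with Pax5 at 0 in every library of 5 groups. Markers of myeloid cells (6 genes), platelets (4) and NK cells (2) summed to at most 5.3, 2.16 and 1.16 CPM. The 5 stromal and endothelial markers summed to 27 to 82.1 CPM in WT with TGFB1, 8.19 to 36.7 CPM in KO with TGFB1 and 42.7 to 78.9 CPM without cytokine. Cdh5 was at 0 in every library of 5 groups and Col1a2 of 4. The part of these markers in the results was not tested, and in bulk samples fewer cells of a type and less RNA per cell cannot be told apart.

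WT 62 with TGFB1 was often the lowest WT library in these genes, though Dixon's outlier test did not flag it for any member. Of the 7 members that TGFB1 raised in WT, it held the lowest level among the 5 WT libraries in 6. KO 63 with TGFB1 held the lowest level in 5 of the 7 among the KO libraries. The same 2 numbers were lowest in 4 and 1 of the 7 without cytokine and in 1 and 0 with IL12. Both are the males, and the part of sex was not tested. WT 62 was singled out after its values were seen, so fits without it lend no separate support. For the members, results that turn on WT 62 are given with and without it. For other genes this was not read.

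**Figure D1:**
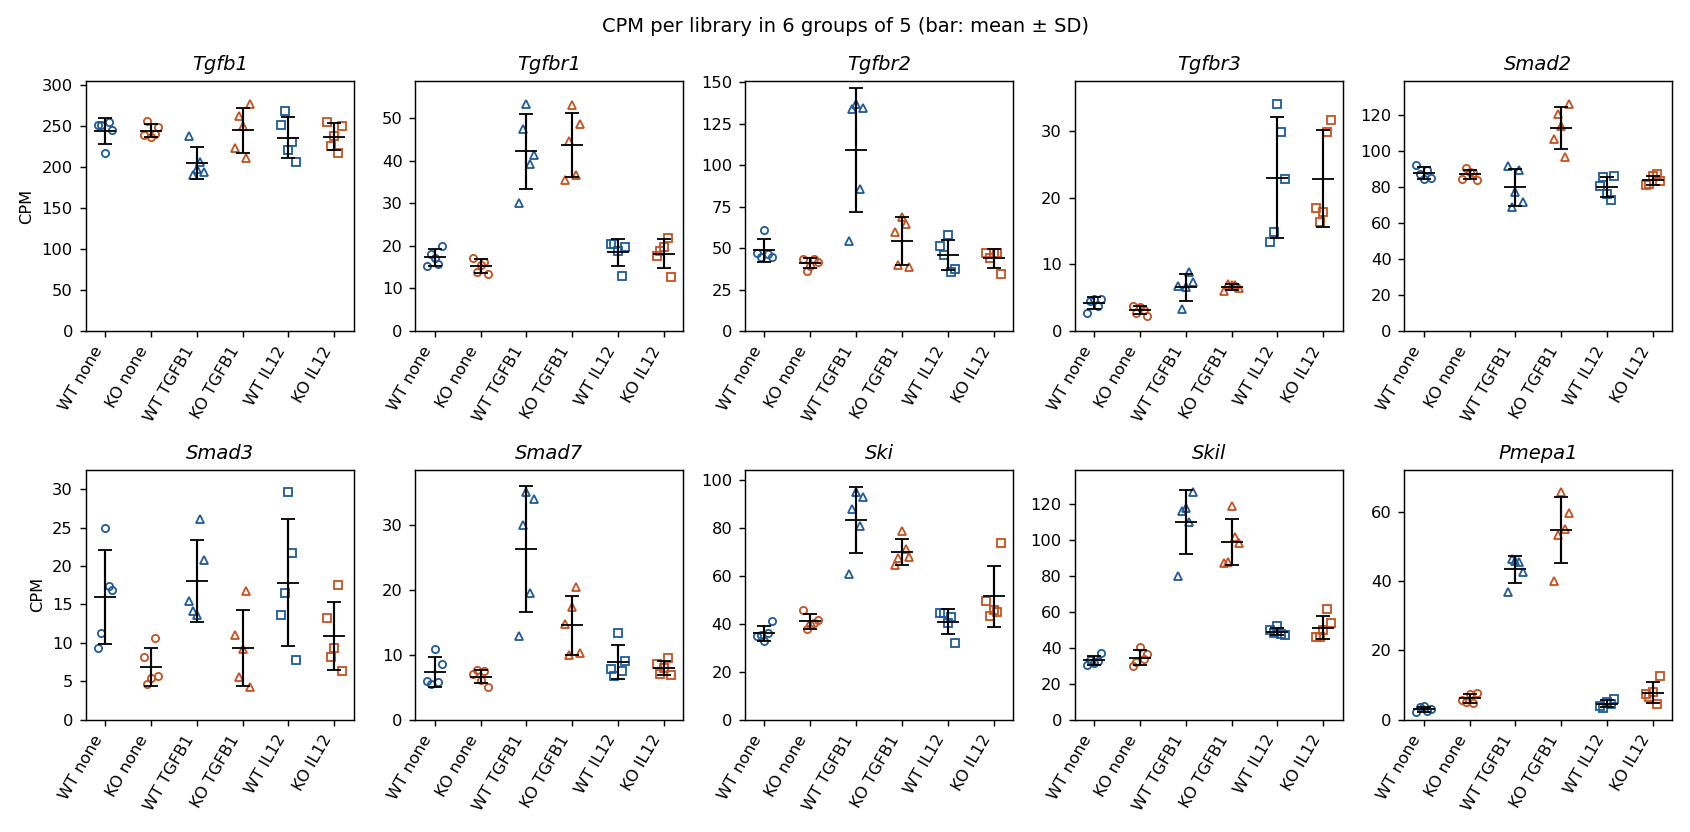
Level of each of the 10 genes in CPM (vertical axes, from 0) in the 6 groups (horizontal axes), with WT in blue and KO in orange. Each symbol is 1 library and the black marks are the mean ± SD of 5 libraries. Tgfbr1, Ski, Skil and Pmepa1 stood high with TGFB1 in both genotypes, Tgfbr2 and Smad7 stood higher with TGFB1 in WT than in KO, and Tgfbr3 stood high with IL12.

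Per kilobase of annotated exon, Tgfb1 had the highest level of the 10 genes in every group. It averaged 48.39 ± 3.08 CPM per kilobase (SD, n = 5) in WT without cytokine, where Smad2 followed at 9.98 ± 0.36. Tgfbr2 stood at 5.94 ± 0.84 and Tgfbr1 at 2.65 ± 0.30 there, so the message of the ligand-binding receptor was above that of its partner. Pmepa1 and Tgfbr3 were the lowest of the 10 there, at 0.62 ± 0.15 and 0.63 ± 0.14. With TGFB1, Pmepa1 averaged 8.85 ± 0.80 in WT and 11.13 ± 1.93 in KO, close to the 9.08 ± 1.16 of Smad2 in WT and to the 12.84 ± 1.32 of Smad2 in KO.

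Tgfb1, the ligand (ENSMUSG00000002603, GRCm38 chromosome 7, 25687002 to 25705077, plus strand), was lower in WT cells given TGFB1 than in every other group on average. In the order of their numbers, the 5 WT libraries held 251.9, 251.0, 217.0, 254.8 and 245.1 CPM without cytokine. With TGFB1 these were 238.1, 190.1, 197.4, 206.8 and 194.3 CPM. WT 62 with TGFB1 lay within the range without cytokine and the other 4 lay below it. The ligand's message fell by 0.25 ± 0.08 on the log2 scale (adjusted p = 0.0124). In KO with TGFB1 the 5 libraries held 223.2, 262.1, 250.5, 211.6 and 277.3 CPM. These overlap the 236.5 to 256.2 CPM of KO without cytokine, and the log2 fold change was 0.00 ± 0.08 (adjusted p = 0.979). With TGFB1 present, Tgfb1 was higher in KO than in WT by 0.25 ± 0.08 (adjusted p = 0.0119), though the ranges overlap. The call was lost without KO 74 with TGFB1, the highest KO library (0.20, adjusted p = 0.0633), and with the compared groups alone (adjusted p = 0.064). The difference between the genotypes in the response to TGFB1 was 0.25 ± 0.11 and missed the threshold (adjusted p = 0.169). Of 20 fits that left out 1 library, 1 called it, the fit without WT 62 with TGFB1 (0.31, adjusted p = 0.0377). Adjusted p reached 0.361 without KO 74 with TGFB1. IL12 was not called for Tgfb1 in either genotype, at 206.5 to 268.9 CPM in WT and 216.9 to 255.6 CPM in KO.

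Tgfbr1 and Tgfbr2, which encode the signalling receptor pair, both rose with TGFB1 in WT cells, whereas in KO cells only Tgfbr1 was called. Because both genes moved with TGFB1 in WT, the stretches before their start sites are shown (RefSeq, GRCm38.p6). Each is the 250 bases just upstream of the annotated start, read 5′ to 3′ on the gene's strand, at chr4:47352972-47353221 (plus) for Tgfbr1 and chr9:116175364-116175613 (minus) for Tgfbr2. Capitals mark the letters CAGAC, a short form of the SMAD-binding element, searched on both strands.
Tgfbr1: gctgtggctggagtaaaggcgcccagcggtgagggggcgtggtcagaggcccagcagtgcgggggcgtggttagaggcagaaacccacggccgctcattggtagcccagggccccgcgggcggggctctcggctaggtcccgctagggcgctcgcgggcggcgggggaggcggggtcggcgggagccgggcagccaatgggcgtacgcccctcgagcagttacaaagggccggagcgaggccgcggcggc
Tgfbr2: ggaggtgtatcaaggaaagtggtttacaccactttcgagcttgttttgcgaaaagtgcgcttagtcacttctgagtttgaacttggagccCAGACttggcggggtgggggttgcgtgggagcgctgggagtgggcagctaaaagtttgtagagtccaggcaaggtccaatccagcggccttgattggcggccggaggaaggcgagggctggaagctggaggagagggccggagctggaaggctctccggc
The Tgfbr2 stretch holds 1 match, 160 bases before the start, and the Tgfbr1 stretch holds 0. A further annotated start of Tgfbr1 has 1 match in its own 250 bases. CAGAC was present in 42.2% of the 32851 such stretches read, so a match is common. The palindrome GTCTAGAC was in 0.167% of them and in neither stretch. A stretch was read for 5 of the 10 members. Those of Ski, Tgfb1 and Smad3, not shown, held 0 matches to CAGAC, and Ski and Tgfb1 were also called with TGFB1 in WT.

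Tgfbr1 (ENSMUSG00000007613, chromosome 4, 47353222 to 47414931, plus strand) encodes the kinase that phosphorylates SMAD2 and SMAD3. It was at 15.2, 18.2, 17.2, 15.8 and 20.1 CPM in the 5 WT libraries without cytokine and at 30.0, 47.4, 53.4, 39.2 and 41.3 CPM with TGFB1. The lowest level with TGFB1, in WT 62, was above all 5 without. In KO it was at 17.2, 14, 15.4, 16.2 and 13.5 CPM without cytokine and at 35.5, 44.6, 53.2, 36.8 and 48.6 CPM with TGFB1, again with no overlap. In WT the log2 rise was 1.29 ± 0.15 (adjusted p = 3.49e-07), beside 1.52 ± 0.15 in KO (adjusted p = 1.28e-08). The difference between these rises was 0.23 ± 0.21 (adjusted p = 0.54), so a difference was not detected at this spread. KO and WT were not called apart in any condition, and with TGFB1 their difference was 0.05 ± 0.14. IL12 left it at 12.8 to 20.4 CPM in WT and 12.8 to 21.9 CPM in KO, with no call.

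Tgfbr2 (ENSMUSG00000032440, chromosome 9, 116084293 to 116175360, minus strand) encodes the receptor that binds the ligand. In WT it was at 47.2, 44.7, 60.8, 46.3 and 44.4 CPM without cytokine and at 54.3, 133.9, 137.1, 85.9 and 134.5 CPM with TGFB1. WT 62 with TGFB1 lay inside the range without cytokine and the other 4 lay above it. The KO libraries held 43.6, 36.1, 39.5, 43.7 and 41.9 CPM without cytokine and at 59.7, 39.6, 68.9, 64.6 and 38.5 CPM with TGFB1. KO 68 and KO 74 with TGFB1 stayed within the range without cytokine and the other 3 were above it. In WT, TGFB1 raised Tgfbr2 by 1.17 ± 0.19 (adjusted p = 5.03e-05), whereas the KO value was 0.40 ± 0.19 (adjusted p = 0.131). With TGFB1, Tgfbr2 was lower in KO than in WT by a log2 fold change of -1.01 ± 0.19 (adjusted p = 0.000478), called in each of 10 fits that left out 1 library. WT 62 was the only WT library within the KO range. The difference of the TGFB1 responses, -0.76 ± 0.27, missed the threshold in the fit with no block for the number (adjusted p = 0.1). With the number as a fixed block it was called. Of 20 fits that left out 1 library, 1 called it, the fit without WT 62 with TGFB1 (-0.93, adjusted p = 0.00543). Adjusted p reached 0.199 without WT 71 with TGFB1. Without cytokine the KO levels all lay below the WT levels, by as little as 43.7 against 44.4 CPM, and the log2 fold change of -0.25 ± 0.20 was not called (adjusted p = 0.513). IL12 was not called in either genotype.

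Tgfbr3 (ENSMUSG00000029287, chromosome 5, 107106570 to 107289629, minus strand), which encodes the co-receptor betaglycan, stood highest with IL12, where in both genotypes every library was above every library with TGFB1. Counts were low, from 23 to 385 reads per library. In WT it was at 2.8, 4.5, 4.8, 3.7 and 4.9 CPM without cytokine and at 13.4, 14.8, 34.1, 29.9 and 22.8 CPM with IL12. In KO it was at 3.8, 2.7, 3.6, 3.1 and 2.3 CPM without cytokine and at 18.5, 16.4, 17.9, 29.9 and 31.7 CPM with IL12. No library with IL12 was as low as one without. IL12 raised it in WT by 2.47 ± 0.26 (adjusted p = 1.54e-07), and in KO cells by 2.88 ± 0.26 (adjusted p = 2.66e-08). With TGFB1 it was at 6.7, 3.3, 6.6, 8.9 and 7.3 CPM in WT and at 6.0, 7.1, 6.9, 6.9 and 6.4 CPM in KO. That rise was 1.11 ± 0.28 in KO (adjusted p = 0.00388) and 0.67 ± 0.27 in WT (adjusted p = 0.0478). In WT the rise was called in 2 of the 10 fits that left out 1 library, and the adjusted p reached 0.124 without WT 72 with TGFB1. It was also lost without WT 62, 71 or 75 with TGFB1 (0.0584, 0.0787 and 0.0876) and without WT 62, 67, 72 or 75 with no cytokine (0.121, 0.0651, 0.0903 and 0.0511). KO and WT were not called apart in any condition. The gene overlaps 4 other annotated loci, which held at most 2 reads in a library.

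Smad2 (ENSMUSG00000024563, chromosome 18, 76241580 to 76310963, plus strand) encodes one of the SMADs that the receptor activates. It was the only member for which the response to TGFB1 was called different between the genotypes in the fit with no block for the library's number. Without cytokine it was at 92.3, 87.2, 84.4, 89.2 and 85.1 CPM in WT and at 84.6, 90.3, 88.1, 88.0 and 84.0 CPM in KO, nearly the same range. With TGFB1 it was at 91.6, 69.1, 77.2, 89.2 and 71.5 CPM in WT and at 106.9, 120.4, 113.6, 96.5 and 126.2 CPM in KO. Every KO library with TGFB1 was above every WT library with TGFB1 and above every library without cytokine. The difference of KO from WT with TGFB1 was 0.50 ± 0.07 (adjusted p = 7.88e-05). TGFB1 raised Smad2 by 0.37 ± 0.07 in KO (adjusted p = 0.000351), and the value in WT was -0.14 ± 0.07 (adjusted p = 0.143). The responses differed by 0.51 ± 0.10 (adjusted p = 0.0159). That difference was called in each of 20 fits that left out 1 library, with adjusted p from 0.000548 to 0.0457. Without WT 62 with TGFB1 the value in WT became a called fall, at -0.19 (adjusted p = 0.033), and the responses differed by 0.57 (adjusted p = 0.000548). That fall was called in 1 of 10 fits that left out 1 library, and adjusted p reached 0.428. With IL12 the ranges were 72.9 to 85.9 CPM in WT and 81.1 to 87.0 CPM in KO, with no call.

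Smad3 (ENSMUSG00000032402, chromosome 9, 63646767 to 63757994, minus strand), the other activated SMAD, varied widely among the libraries of a group, with a coefficient of variation of 29.8% to 52.9%. Without cytokine it was at 9.3, 11.3, 25, 17.3 and 16.9 CPM in WT and at 8.1, 4.6, 5.4, 10.7 and 5.7 CPM in KO. With TGFB1 it was at 15.5, 14.2, 13.6, 26.2 and 20.8 CPM in WT and at 11, 5.6, 9.1, 16.8 and 4.2 CPM in KO. Group means were lower in KO in all 3 conditions, and the ranges overlapped in each. With TGFB1 KO was lower by a log2 fold change of -0.95 ± 0.35 (adjusted p = 0.0341). That call was held in 5 of 10 fits that left out 1 library, and it was lost with the compared groups alone (adjusted p = 0.0555) and without KO 68, 70 or 74 or WT 72 or 75 with TGFB1 (adjusted p = 0.0989, 0.0576, 0.108, 0.089 and 0.0689). Without cytokine the value was -1.20 ± 0.36 (adjusted p = 0.0729), and it was called without WT 62 (-1.34, adjusted p = 0.0437) or without KO 73 (-1.41, adjusted p = 0.0319). It was also called with DESeq2 (adjusted p = 0.04), with no filter on low counts (adjusted p = 0.0382) and with the compared groups alone (adjusted p = 0.0213). With IL12 it was -0.72 ± 0.34 (adjusted p = 0.189), over 7.8 to 29.6 CPM in WT and 6.3 to 17.5 CPM in KO. Neither cytokine was called for Smad3 in either genotype.

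Smad7 (ENSMUSG00000025880, chromosome 18, 75367529 to 75395935, plus strand) encodes the inhibitory SMAD that blocks TGFBR1 and brings ubiquitin ligases to it. In WT it was at 6.0, 5.6, 10.8, 5.9 and 8.6 CPM without cytokine and at 12.9, 30.0, 35.0, 19.4 and 33.9 CPM with TGFB1. KO cells had 7.0, 7.6, 6.1, 7.4 and 5.1 CPM without cytokine and at 14.8, 9.9, 17.4, 20.5 and 10.2 CPM with TGFB1. Within each genotype the ranges with and without TGFB1 did not overlap. TGFB1 raised Smad7 in WT by 1.83 ± 0.25 (adjusted p = 3.59e-06), and in KO cells by 1.13 ± 0.25 (adjusted p = 0.0013). With TGFB1 it was lower in KO by a log2 fold change of -0.85 ± 0.23 (adjusted p = 0.00608), called in each of 10 fits that left out 1 library but not with the compared groups alone (adjusted p = 0.0505). WT 62 and WT 72 lay within the KO range. The 2 responses differed by -0.71 ± 0.35, which was not called (adjusted p = 0.225). Without WT 62 with TGFB1 that difference was -0.88 (adjusted p = 0.0502). It was called in 0 of 20 fits that left out 1 library, and adjusted p reached 0.381. With IL12 it was at 6.8 to 13.3 CPM in WT and 6.9 to 9.6 CPM in KO, and no call was made.

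Ski and Skil encode related co-repressors that bind SMADs and hold their target genes down. Ski (ENSMUSG00000029050, chromosome 4, 155154075 to 155222592, minus strand) was at 34.8, 35.3, 33.0, 36.2 and 41.1 CPM in WT without cytokine and at 60.8, 87.9, 94.8, 80.8 and 92.9 CPM with TGFB1. In KO it was at 45.6, 37.7, 39.7, 40.3 and 41.7 CPM without cytokine and at 64.4, 67.4, 78.6, 71.2 and 68 CPM with TGFB1. Apart from WT 62, the WT libraries with TGFB1 were all above the 5 KO libraries with TGFB1. TGFB1 raised Ski in WT by 1.21 ± 0.12 (adjusted p = 4.32e-08), and in KO cells by 0.77 ± 0.12 (adjusted p = 2.99e-05). With TGFB1, KO against WT was -0.26 ± 0.12 (adjusted p = 0.0972), and it was called without WT 62 (-0.35, adjusted p = 0.0145). The difference of the responses was -0.44 ± 0.17 (adjusted p = 0.133), also called without WT 62 (-0.53, adjusted p = 0.0211). With 1 library left out, these were called in 1 of 10 and 1 of 20 fits. Adjusted p reached 0.242 and 0.25. With IL12 it was at 44.4, 44.5, 40.2, 43.1 and 32.2 CPM in WT and at 49.5, 43.3, 45.8, 44.9 and 73.7 CPM in KO, where KO 74 stood above the rest. KO against WT with IL12 was 0.33 ± 0.12 (adjusted p = 0.097).

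Skil (ENSMUSG00000027660, chromosome 3, 31095058 to 31122577, plus strand) was one of the 2 members called with both cytokines in both genotypes, beside Tgfbr3. In WT it was at 30.5, 33.5, 31.7, 32.5 and 36.9 CPM without cytokine, 79.7, 116.2, 117.8, 109.8 and 126.5 CPM with TGFB1 and 49.7, 48.4, 52.0, 47.9 and 47.0 CPM with IL12. The 5 KO libraries were at 29.7, 32.2, 40.6, 33.6 and 36.7 CPM without cytokine, 87.4, 87.8, 119.2, 101.7 and 98.4 CPM with TGFB1 and 45.8, 45.8, 49.8, 61.4 and 53.7 CPM with IL12. The 3 conditions formed 3 separate ranges in each genotype. TGFB1 raised Skil in WT by 1.74 ± 0.11 (adjusted p = 1.68e-12), and in KO cells by 1.52 ± 0.11 (adjusted p = 2.68e-11). IL12 raised it by 0.57 ± 0.11 in each genotype (adjusted p = 0.000481 in WT and 0.000513 in KO). The comparison of KO with WT was not called in any condition. With TGFB1 it was -0.15 ± 0.10 (adjusted p = 0.249), and without WT 62 it was called at -0.25 (adjusted p = 0.0294). That was 1 of 10 fits that left out 1 library, and adjusted p reached 0.489 in the others.

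Pmepa1 (ENSMUSG00000038400, chromosome 2, 173224458 to 173276533, minus strand) encodes a membrane protein that sequesters SMAD2 and SMAD3, and it had the largest TGFB1 response of the 10 genes. In WT it was at 2.2, 3.7, 3.9, 2.4 and 3.1 CPM without cytokine and at 37.0, 46.5, 45.7, 45.5 and 42.6 CPM with TGFB1. In KO it was at 5.8, 5.2, 7.5, 4.8 and 7.6 CPM without cytokine and at 40, 53.3, 65.6, 54.9 and 59.6 CPM with TGFB1. The rise with TGFB1 was 3.82 ± 0.21 in WT (adjusted p = 2.01e-13), from a mean of 3.05 ± 0.75 to 43.45 ± 3.92 CPM (SD, n = 5). It was 3.15 ± 0.19 in KO (adjusted p = 1.63e-12), from 6.18 ± 1.31 to 54.68 ± 9.48 CPM. The KO baseline was above the WT baseline. Without cytokine every KO library was above every WT library, by 1.01 ± 0.23 on the log2 scale (adjusted p = 0.0227), and with IL12 by 0.76 ± 0.21 (adjusted p = 0.0279) over 7.3, 6.7, 7.9, 4.5 and 12.7 CPM in KO and 4.0, 3.4, 5.1, 4.6 and 5.9 CPM in WT. With IL12 the ranges overlapped through KO 73. Both calls were sensitive to single libraries at these levels. The one without cytokine was held in 5 of 10 fits that left out 1 library, and it was lost without KO 68, 70 or 74 or WT 71 or 72 (adjusted p = 0.0597, 0.084, 0.0976, 0.0527 and 0.0826). The one with IL12 was held in 7 of 10, and it was lost without KO 70, KO 74 or WT 72 (adjusted p = 0.0604, 0.0966 and 0.0716) and with the compared groups alone (adjusted p = 0.133). With TGFB1 the KO level was not called different (0.33 ± 0.17, adjusted p = 0.122), and neither was the difference of the responses (-0.67 ± 0.29, adjusted p = 0.16).

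Read together, TGFB1 raised 7 of the 10 members in WT (Tgfbr1, Tgfbr2, Tgfbr3, Smad7, Ski, Skil and Pmepa1) and lowered 1 (Tgfb1). Over all genes tested, 19.2% were called higher and 18.6% lower in that comparison. In KO it raised 7 (Tgfbr1, Tgfbr3, Smad2, Smad7, Ski, Skil and Pmepa1) and lowered 0, where 13.5% of all genes were higher and 11% lower. The median log2 fold change of the 10 was 1.19 in WT and 0.94 in KO, beside 0.02 and 0.01 over all genes. Levels with and without TGFB1 did not overlap for 5 of the 10 in WT and 7 in KO, as for 14.8% and 20.8% of all genes. IL12 raised 2 members in each genotype (Tgfbr3 and Skil) and lowered 0. All genes gave 10.5% higher and 8.3% lower with IL12 in WT, and 8.49% higher and 5.74% lower in KO. Those 2209 and 1668 genes became 1324 without WT 72 and 1043 without KO 74 with IL12. In each genotype the TGFB1 and the IL12 comparison use the same 5 libraries without cytokine, so they are not independent of each other. The 10 members were chosen with earlier results of these data known, so their counts and medians are a description of these data.

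**Figure D2:**
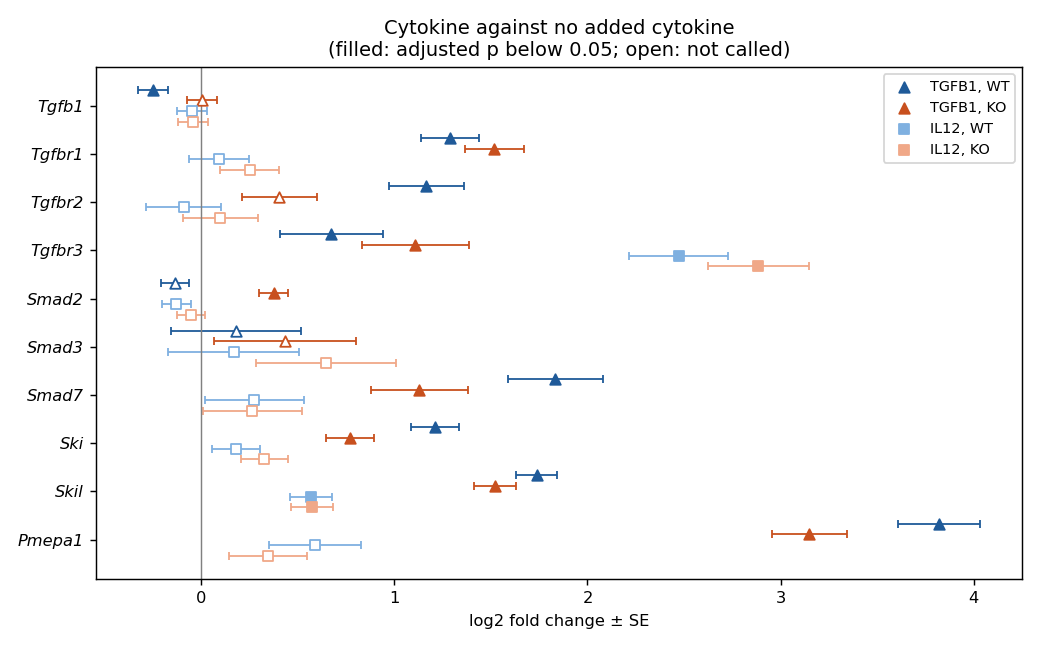
Log2 fold change ± SE (horizontal axis) of each of the 10 genes (rows) with TGFB1 (triangles) or IL12 (squares) against no added cytokine, in WT and KO, with 5 libraries a group. Filled symbols have an adjusted p below 0.05 by edgeR. Pmepa1 lies farthest to the right for TGFB1, at 3.82 in WT and 3.15 in KO, and Tgfbr3 for IL12, at 2.47 and 2.88.

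Between genotypes, 5 members were called with TGFB1 and 1 in each of the other conditions, but 2 both with TGFB1 and without cytokine in fits on the compared groups alone. The calls were not compared between conditions by a test. With TGFB1, 2 members were called higher in KO (Tgfb1 and Smad2) and 3 lower (Tgfbr2, Smad3 and Smad7), where 18.3% of all genes were higher and 17.3% lower. The share of members called is thus read against a background of more than 1 gene in 3. The levels of KO and WT did not overlap for 1 member there (Smad2), and for 7.64% of all genes. Without WT 62 with TGFB1, 7 members were called, and without KO 74 with TGFB1, 3. Without cytokine 1 member was higher in KO (Pmepa1) and 0 lower, beside 1.08% and 1.02% of all genes. These shares rest on single libraries, since the 246 genes behind them became 7 without KO 74 and 564 without KO 73. With IL12 1 was higher (Pmepa1) and 0 lower, beside 2.76% and 4.01%, and those 794 genes became 174 without WT 75 and 1530 without WT 62. The median log2 fold change of the 10 was -0.08 without cytokine, -0.07 with TGFB1 and 0.00 with IL12. The genotypes' responses to TGFB1 differed for 1 member in the higher direction (Smad2) and 0 in the lower, beside 1.61% and 1.69% of all genes. That is the fit with no block for the number. With a fixed block, 2 members, with Tgfbr2 lower, and 1073 genes were called, and with a random block 1 member and 955 genes. Without WT 62 with TGFB1, 4 members and 2155 genes were called in place of 1 and 387, and without WT 75 with TGFB1, 58 genes. The responses to IL12 differed for 0 members by edgeR and by DESeq2. Both shares over all genes were 0% by edgeR, and 0 of the 10 members and 513 of the 11718 genes had an unadjusted p below 0.05.

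**Figure D3:**
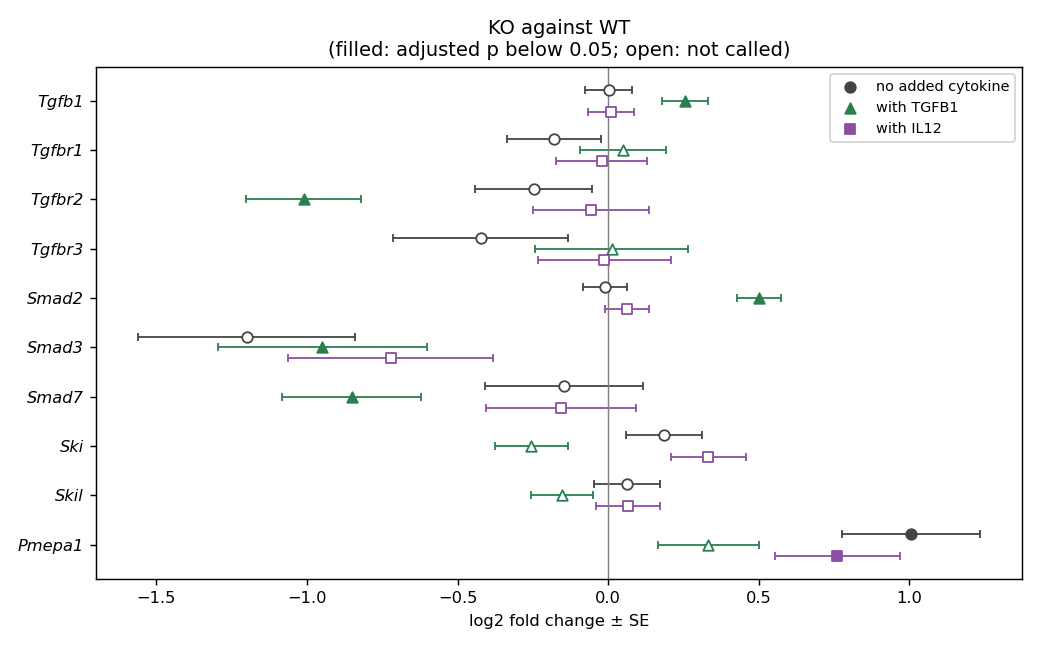
Log2 fold change ± SE (horizontal axis) of KO against WT for each of the 10 genes (rows) with no added cytokine (circles), TGFB1 (triangles) or IL12 (squares), with 5 libraries a group. Filled symbols have an adjusted p below 0.05 by edgeR. With TGFB1, Tgfbr2 (-1.01), Smad3 (-0.95) and Smad7 (-0.85) lie to the left and Smad2 (0.50) and Tgfb1 (0.25) to the right.

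The other genes of the pathway were read from 4 lists, each named for a role. Of 12 further receptors and co-receptors of the family, 8 were measured well enough to test. TGFB1 raised 5 of the 8 in WT and 6 in KO and lowered 0 in both. Over all genes, 19.2% were higher and 18.6% lower in WT, and 13.5% and 11% in KO. Acvr2a, an activin receptor, rose by 2.17 ± 0.24 in WT and 2.21 ± 0.24 in KO, and Acvrl1, a receptor of the BMP branch, by 1.55 and 1.18. Both were low without cytokine, with means of 1.27 CPM in WT and 1.40 CPM in KO for Acvr2a. The means of Acvrl1 were 1.19 and 1.11 CPM there, and 3.52 and 2.49 CPM with TGFB1. The median of the 8 was 0.97 in WT and 1.06 in KO. Bmpr1a, a BMP receptor, rose with TGFB1 in KO by 1.85 ± 0.33 and with IL12 by 2.05 ± 0.36 in WT and 1.91 ± 0.33 in KO. Its means without cytokine were low, at 1.12 CPM in WT and 1.54 CPM in KO. With TGFB1, Bmpr1a was higher in KO than in WT by 1.47 ± 0.32 (adjusted p = 0.00135), as was Eng, the co-receptor endoglin, by 0.76 ± 0.15 (adjusted p = 0.000611). Acvr1b was lower by a log2 fold change of -0.46 ± 0.17. In that comparison 3 of the 8 were higher and 1 lower, beside 18.3% and 17.3% of all genes. The median was 0.39, beside -0.01 over all genes. With IL12, 2 of the 8 were higher in KO than in WT, Bmpr2 by 0.66 ± 0.18 and Acvr1 by 0.63 ± 0.17. Of all genes, 2.76% were higher and 4.01% lower there.

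Of 13 genes for the storage and release of the ligand, 4 were tested: Lrrc32, Nrros, Itgav and Furin. Lrrc32, which encodes the GARP protein that anchors latent TGFB on the cell surface, was below 6 CPM in every library. TGFB1 raised 2 of the 4 and lowered 2 in WT, and raised 2 and lowered 1 in KO. Over all genes, it raised 19.2% and lowered 18.6% in WT, and 13.5% and 11% in KO. Lrrc32 fell with TGFB1 in WT by 1.36 ± 0.47 on the log2 scale (adjusted p = 0.0226). With TGFB1 its mean was 0.89 ± 0.24 CPM in WT and 3.31 ± 1.42 CPM in KO (SD, n = 5), a log2 fold change of 1.89 ± 0.45 (adjusted p = 0.00238). Nrros, another anchor of the latent ligand, fell with TGFB1 by 0.75 ± 0.07 in WT and 1.02 ± 0.07 in KO. Furin rose with TGFB1 by 1.23 ± 0.30 in WT and 1.26 ± 0.30 in KO, and with IL12 by 3.44 ± 0.32 and 2.72 ± 0.31. Itgav, the integrin chain that helps release the ligand, rose with TGFB1 in both genotypes, by 0.51 ± 0.10 in WT (a value named after it was seen) and 0.43 ± 0.10 in KO, and with IL12 by 0.55 ± 0.10 in WT and 0.47 ± 0.10 in KO. IL12 raised 2 of the 4 and lowered 1 (Nrros) in each genotype. Over all genes, it raised 10.5% and lowered 8.3% in WT, and 8.49% and 5.74% in KO.

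Of 20 other SMADs and SMAD regulators, 17 were tested, and most did not pass the test in a given comparison. TGFB1 raised 4 and lowered 3 in WT, and raised 5 and lowered 2 in KO, with medians of 0.05 and 0.07. All genes gave 19.2% higher and 18.6% lower in WT, and 13.5% and 11% in KO. IL12 raised 2 and lowered 1 in WT and raised 3 and lowered 0 in KO, Wwp1 among them by 0.90 ± 0.17 and 0.87 ± 0.17. All genes gave 10.5% higher and 8.3% lower with IL12 in WT, and 8.49% and 5.74% in KO. With TGFB1, 5 were higher in KO than in WT and 2 lower, beside 18.3% and 17.3% of all genes. Wwp1, a ubiquitin ligase that acts on the receptor with SMAD7, was higher in KO by 1.08 ± 0.17 (adjusted p = 0.000119). Fkbp1a, which encodes FKBP12, a protein that binds the resting TGFBR1, was higher by 0.82 ± 0.12 (adjusted p = 7.88e-05). Sik1, a kinase induced by TGFB in other cells, was lower by a log2 fold change of -0.95 ± 0.19 (adjusted p = 0.000691). Responses to TGFB1 differed between genotypes for 3 of the 17: Wwp1 (0.85 ± 0.24), Fkbp1a (0.65 ± 0.17) and the co-repressor Tgif1 (-0.52 ± 0.15), with adjusted p = 0.0459, 0.0357 and 0.0444. Their values with 1 library left out were not read. Over all genes, the 387 calls in that comparison became 58 without WT 75 and 2155 without WT 62, both with TGFB1. Of all genes, 1.61% were called higher and 1.69% lower there.

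Of 15 genes known to respond to TGFB in T cells or widely, 11 were tested. In WT TGFB1 raised 3 and lowered 4, beside 19.2% and 18.6% of all genes. In KO it raised 4 and lowered 5, beside 13.5% and 11%. Itgae rose by 5.73 ± 0.45 in WT and 5.14 ± 0.49 in KO, and the granzyme gene Gzmb fell by 4.17 ± 0.47 and 5.21 ± 0.51. Foxp3, the regulatory T-cell factor, rose by 3.36 ± 0.57 in WT and 5.98 ± 0.57 in KO. These rises started from very low levels, with means of 0.28 CPM in WT and 0.14 CPM in KO without cytokine. With TGFB1 the means of Foxp3 were 2.87 CPM in WT and 10.05 CPM in KO. The difference of its responses, 2.62 ± 1.02, was not called (adjusted p = 0.128). With TGFB1, 1 was higher in KO than in WT (Foxp3, 1.79 ± 0.37) and 6 were lower, among them Gzmb (-2.02 ± 0.48) and Itgae (-1.88 ± 0.34). The median of the 11 in that comparison was -1.05. Of all genes, 18.3% were higher and 17.3% lower there. Itgae was at 28.9 to 268 CPM in WT with TGFB1 and at 28.37 to 84.8 CPM in KO with TGFB1, so these ranges overlapped. IL12 raised 5 of the 11 in each genotype and lowered 0, led by Gzmb (2.11 ± 0.42 in WT and 2.38 ± 0.43 in KO) and Tbx21, the factor T-bet (1.83 ± 0.19 and 1.62 ± 0.19). Over all genes, IL12 raised 10.5% and lowered 8.3% in WT, and 8.49% and 5.74% in KO. The responses to TGFB1 were called different between genotypes for 2 of the 11, Id3 (-1.86 ± 0.35, adjusted p = 0.0126) and Nedd9 (-0.84 ± 0.18, adjusted p = 0.0173). Values of Id3 and Nedd9 with 1 library left out were not read. Of all genes, 1.61% were called higher and 1.69% lower there. Id3 fell by 2.16 ± 0.26 in KO, where the WT value was -0.30 ± 0.24 and not called. Nedd9 fell by 0.95 ± 0.13 in KO, where the WT value was -0.12 ± 0.12 and not called. The 4 lists were written with earlier results of these libraries known, so their counts describe these data and lend no separate support.

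Over the 30 libraries, the members with the closest companions were Pmepa1 and Tgfbr2. For each member the 3 tested genes with the highest Pearson correlation of log2 CPM were taken. The libraries form 6 groups, so the values include the differences between groups and are a description. Pmepa1 was most like Cdc42bpb (r = 0.976, n = 30 libraries), Nt5e (0.961), which encodes the ectoenzyme CD73, and Maged1 (0.948). Tgfbr2 was most like Sesn3 (0.962), Pbxip1 (0.947) and Btg2 (0.943), and Smad7 like Ypel3 (0.960), Fbxo32 (0.957) and C1qtnf6 (0.956). Tgfbr1 was most like Aqp3 (0.953), Adam12 (0.949) and Igha (0.948), and Skil like Igha (0.956), Slc44a1 (0.953) and Maf (0.950). Igha is the constant region gene of IgA. Tgfbr3, which stood high with IL12, was most like Il23r (0.943), Id2 (0.942) and Ctla2a (0.939). Ski had a member among its 3, Skil (0.914), after Slco3a1 (0.936) and Gtf2ird1 (0.917). Smad2 was most like Slc25a15 (0.905), Ahcy (0.891) and Ppt1 (0.888), and Smad3 like Cables1 (0.896), Tcf3 (0.891) and Vps37b (0.886). For Tgfb1 they were Pitrm1 (0.875), Nup62 (0.867) and Vac14 (0.863), the lowest values of the 10 members.

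**Figure D4:**
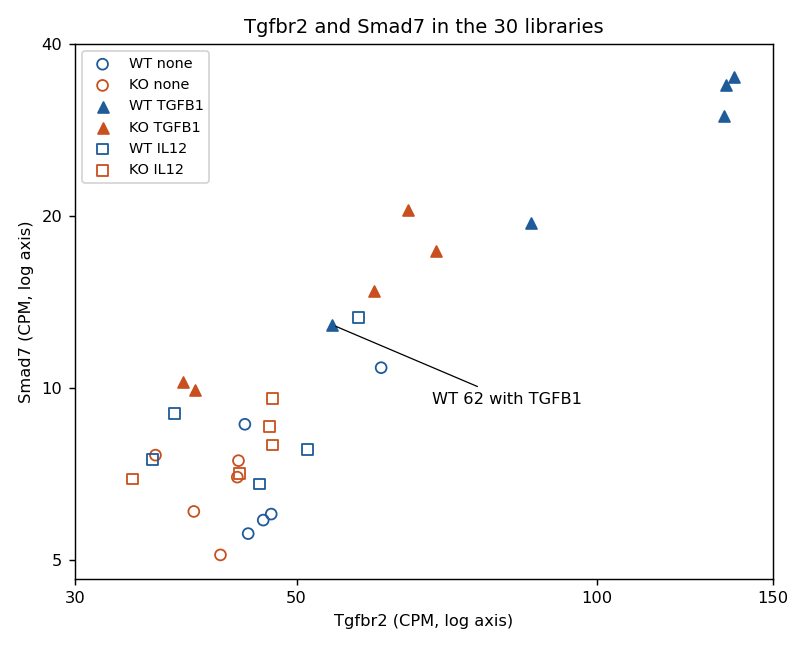
Level of Tgfbr2 (horizontal axis) against Smad7 (vertical axis), both in CPM on log axes, in the 30 libraries, with the group given by colour and symbol. With TGFB1, 3 WT libraries lie at 133.9 to 137.1 CPM of Tgfbr2 and 30.0 to 35.0 CPM of Smad7, while WT 62, at 54.3 and 12.9 CPM, lies among the 5 KO libraries with TGFB1.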

How the data were processed

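Reads were from NEBNext Ultra II Directional libraries made after poly(A) selection, per the labels' protocols. The authors deposited 1 table of raw counts per Ensembl gene. The submitters' processing notes name GRCm38, STAR, Trim Galore, FastQC and DESeq2 1.24.0. The counting tool, its use of strand and the gene annotation were not given in the sources used here. All 30 columns were matched to samples by title. Symbols and coordinates came from GENCODE vM21 by gene identifier (55394 of 55573 matched), and lengths are the union of exons.

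The filter was filterByExpr (minimum count 10), and the genes kept held 99.88% of counts. The fit was by edgeR 4.0.16 in R 4.3.3, with TMM factors, 1 mean per group and 9 two-sided contrasts. It was tested on simulated data. Log2 CPM for the likeness of genes used a prior count of 1. Promoter stretches outside chromosome 18 were read from a RefSeq table (GRCm38.p6), so Smad2 and Smad7 were left out. Depth was 7306151 to 15502443 counts per library, and members had from 20 to 3543 counts. No 2 libraries of a group were close enough to be copies. Over 60 pairs, chi-square per degree of freedom was 2.34 to 45.1.

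The members, lists and tests were chosen with earlier results of these data known. Named genes were the 10 members, the 3 genes most like each, and at most the 3 called genes of each list and comparison with the largest absolute log2 fold change. Shared numbers were checked as pairs. Libraries of KO with TGFB1 and without cytokine that share a number deviated together in all 5 pairs (r of 0.102 to 0.372). The block for the number changed no member's call in that comparison. Alternatives were DESeq2 size factors, no filter, DESeq2 1.42.0, the compared groups alone, a term for numbers above 70, a block for the number as a fixed term in edgeR or a random one in limma 3.58.1, and leaving out each library.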

Additional observations from a re-analysis of the deposited data

Results flagged for a closer look

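In 5 of the 60 sets formed by 10 genes and 6 groups, 1 library lay far from the other 4 by Dixon's test, where chance flags about 1 in 20. WT 71 without cytokine had the lowest Tgfb1 of its group, 217 CPM against 245.1 for the nearest, and the highest Tgfbr2, 60.77 against 47.16 CPM. WT 72 with IL12 had the lowest Tgfbr1 of its group, 12.84 against 18.88 CPM. KO 74 with IL12 had the lowest Tgfbr2, 34.27 against 43.81 CPM, and the highest Ski, 73.72 against 49.51 CPM. By the edgeR interaction term, the response of Smad2 to TGFB1 differed between KO and WT by 0.5111 on the log2 scale (adjusted p = 0.0159).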

How the results depend on the processing

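Depth limited Tgfbr3 and Pmepa1, with 23 and 20 counts in their lowest libraries. Over the settings other than leaving out 1 library, 576 log2 fold changes of members kept their direction and their side of the threshold, 7 lost a call, 6 gained one and 11 changed sign. With 1 library left out, 1000 kept both, 22 lost a call, 10 gained one and 68 changed sign. The 2 scalings left every count of members called within 1.5 times of each other. Except where stated, the cause of a change was not tested.

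Members called in KO against WT without cytokine were 1 in the main analysis and 2 with the compared groups alone, with DESeq2 and with no filter, each adding Smad3 (adjusted p = 0.0213, 0.04 and 0.0382). With TGFB1 they were 5, and 2 with the compared groups alone, where Tgfb1, Smad3 and Smad7 were lost (adjusted p = 0.064, 0.0555 and 0.0505). With IL12 they were 1, and 0 with the compared groups alone and with a random block for the number, where Pmepa1 had adjusted p = 0.133 and 0.0582. Leaving out 1 library gave 0 to 2 without cytokine, 3 to 7 with TGFB1 and 0 to 1 with IL12. It gave 1 to 4 for the difference in the TGFB1 response. The rise of Tgfbr3 with TGFB1 in WT was lost with no filter (adjusted p = 0.0614) and with the random block (adjusted p = 0.12).

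The numbers did not pair the libraries by every check. Over 30 pairs the median r was 0.222, and 25 pairs were over 0.1. The lowest were -0.0339 for WT 75 with IL12 against no cytokine and -0.0136 for WT 75 with TGFB1 against IL12. Next were 0.0495 for KO 70 with IL12 and 0.0992 for WT 67 with TGFB1, each against no cytokine. With a fixed block for the number, the difference in the TGFB1 response was called for 2 members, adding Tgfbr2 (-0.76, adjusted p = 0.0443), and the rise of Pmepa1 with IL12 in WT was called (0.58, adjusted p = 0.0396). With the random block, whose correlation was 0.142, Pmepa1 was called higher in KO with TGFB1 (0.33, adjusted p = 0.0373). Log2 fold changes that changed sign were not called, and those that did so under the block were near 0. Some that did so with 1 library left out were not, such as Smad3 in the difference of the TGFB1 responses (0.25 ± 0.50). Under the block these were Tgfb1 with TGFB1 in KO (-0.00131 fixed, -0.00251 random), Tgfbr3 in KO against WT with IL12 (0.00325, random) and Skil in the difference of the IL12 responses (-0.000217, fixed).

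Other sign changes came with no filter and with a term for numbers above 70. With no filter they were Tgfb1 in KO against WT without cytokine (-0.00311), Tgfbr3 with IL12 (0.00822) and Smad7 in the difference of the IL12 responses (0.0146). The term gave Tgfb1 -0.0122 without cytokine and -0.00408 with IL12, Tgfbr3 0.0961 with IL12 and Skil -0.000845 in the difference of the IL12 responses. Leaving out 1 library moved these values across 0. In KO against WT without cytokine they were Tgfb1 (-0.0303 to 0.0233), Smad2 (-0.0246 to 0.0174) and Smad7 (-0.236 to 0.0378). With TGFB1 they were Tgfbr1 (-0.0493 to 0.151) and Tgfbr3 (-0.152 to 0.139). With IL12 they were Tgfb1 (-0.0319 to 0.0608), Tgfbr1 (-0.124 to 0.0851), Tgfbr2 (-0.128 to 0.0426), Tgfbr3 (-0.159 to 0.17), Smad7 (-0.242 to 0.0392) and Skil (-0.00596 to 0.106). For IL12 in WT they were Tgfbr2 (-0.185 to 0.00546) and Smad3 (-0.0906 to 0.389), and for TGFB1 in KO Tgfb1 (-0.0502 to 0.0611). In the difference of the TGFB1 responses it was Smad3 (-0.0914 to 0.46). In that of the IL12 responses they were Tgfb1 (-0.0356 to 0.0586), Smad7 (-0.192 to 0.184), Ski (-0.0198 to 0.203) and Skil (-0.0718 to 0.0664).

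Over all genes, KO against WT without cytokine called 246 genes, 1099 with the compared groups alone, 454 with DESeq2 and 7 to 564 with 1 library left out. With TGFB1 it called 4166, and 2307 with the compared groups alone. With IL12 it called 794, 45 with the compared groups alone, 504 with no filter and 174 to 1530 with 1 library left out. The TGFB1 responses differed for 387 genes, 752 with DESeq2, 1073 with the fixed block, 955 with the random block and 58 to 2155 with 1 library left out, the lowest without WT 75 and the highest without WT 62, both with TGFB1. The counts for IL12 against no cytokine were 2209 in WT and 1668 in KO, and fell to 1324 and 1043 with 1 library left out.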
